A study of Canis lupus familiaris with 15 samples.

Results

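KRT8, KRT18, EPCAM and TJP1 were followed across 3 canine mammary tumour cell lines. The genes were found by their symbols and had 5 probes in all, 1 each for KRT8, KRT18 and EPCAM and 2 for TJP1, of 22176 probes on the array. They are 4 of the 5246 genes named there. P114 was derived from an anaplastic carcinoma, CMT-U229 from a benign mixed tumour and CMT-U335 from an osteosarcoma that arose in the mammary gland. The labels give no treatment for any line, and RNA was taken close to confluence. Each of 15 cDNA arrays carried a pair of lines in Cy5 and Cy3, with 5 arrays per pair and the dyes swapped on 2 or 3 of them. The comparisons were P114 over CMT-U335, P114 over CMT-U229 and CMT-U229 over CMT-U335. Each line comes from a single tumour, so a difference between lines is not shown to be one between tumour types.

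Keratins 8 and 18 are the intermediate filament proteins of simple epithelia, which in the breast include the luminal cells that line the ducts. KRT8 encodes a type II and KRT18 a type I keratin, and filaments form from pairs of the 2 types. EPCAM encodes a homophilic adhesion molecule of the epithelial surface, and TJP1 encodes ZO-1, a cytoplasmic scaffold that joins the membrane proteins of tight junctions to actin. ZO-1 is also made by many cells that are not epithelial. Osteosarcomas are mesenchymal tumours, and mixed tumours of the canine mammary gland hold both epithelial and mesenchymal elements.

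All values are log2 ratios of the first-named line over the second. Means cover the 5 arrays of a pair and carry limma's standard error (SE). Genes with a Benjamini-Hochberg adjusted p under 0.05, taken over 5246 genes, are called. The direction is likely and not settled, because the deposited values do not state which dye is on top. They were read as Cy5 over Cy3, Cy5 being the first channel in the labels, and base 2 was likewise inferred. With Cy3 on top every sign below would turn. As deposited, correlations over probes within a pair ran from 0.196 to 0.497 between arrays with equal dye order and from -0.348 to 0.000149 between arrays with opposite order. The labels call the arrays biological replicates, whereas the design text speaks of dye swaps as well, so the p-values measure the spread between arrays, part of which may be technical. Replicates 1 with 3 and 2 with 5 of P114 over CMT-U229 looked like swaps of the same RNA, as did 2 with 3 and 4 with 5 of CMT-U229 over CMT-U335. In P114 over CMT-U335 the best split, 1 with 3 and 4 with 5, was unclear. Where the apparent swaps are averaged below, each couple gives 1 value, so a pair has fewer values than its 5 arrays. A call lost there does not by itself speak against a difference. Spot intensities were not used here, so the distance of any value from background is unknown. Fewer cells that express a gene and less RNA per cell cannot be told apart in these RNA pools.

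The epithelial genes differed strongly between the lines, and each did so in a pattern of its own. KRT8 was at similar levels in P114 and CMT-U229 and far lower in CMT-U335. KRT18 was far higher in P114 than in either other line, EPCAM descended in even steps from P114 over CMT-U229 to CMT-U335, and TJP1 hardly differed. In P114 over CMT-U335 3 of the 4 genes were called higher and 1 lower, where limma called 22.3% of all genes. In P114 over CMT-U229 2 of the 4 were called, both higher, against 7.3% of all genes. In CMT-U229 over CMT-U335 3 of the 4 were called, all higher, against 17.3% of all genes. Called higher in both lines over CMT-U335 were KRT8, KRT18 and EPCAM, as were 210 genes (4%) in all. KRT18 and EPCAM were also among the 17 genes (0.324%) called higher in all 3 pairs. The median ratio of all genes was close to 0 in every pair, from -0.023 to -0.0050.

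**Figure D1:**
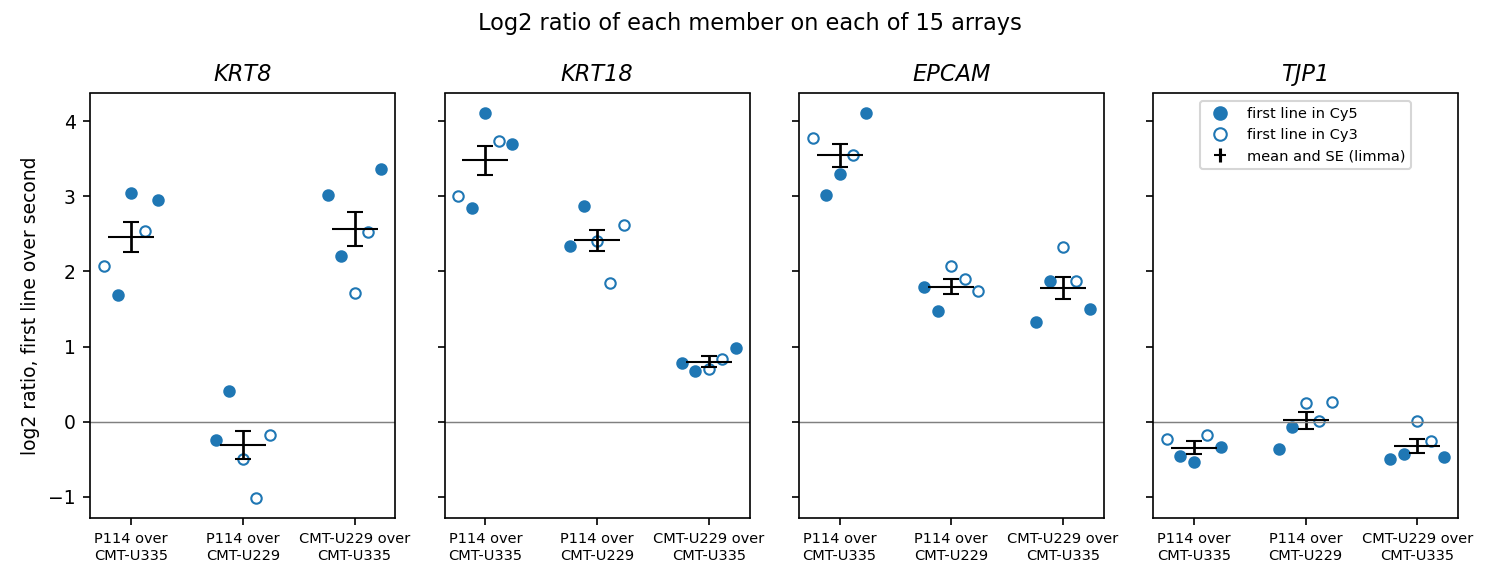
Log2 ratio of KRT8, KRT18, EPCAM and TJP1 on each array (points, filled where the first-named line carried Cy5), with mean and SE from limma, for the 3 pairs of 5 arrays. KRT8 lies near 2.5 in both pairs against CMT-U335 and around 0 in P114 over CMT-U229, whereas KRT18 lies lowest in CMT-U229 over CMT-U335 and TJP1 stays between -0.53 and 0.26.

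KRT8, the type II keratin, had ratios of 2.07, 1.68, 3.04, 2.54 and 2.95 in replicates 1 to 5 of P114 over CMT-U335. Every array put it higher in P114, and the mean was 2.46 ± 0.20 (SE, n = 5), a 5.49-fold difference (adjusted p = 0.000262, limma). It ranked 11th from the top of 5246 genes. CMT-U229 over CMT-U335 gave 3.01, 2.21, 1.71, 2.52 and 3.36, again above 0 on all 5 arrays. Here the mean was 2.56 ± 0.23, or 5.91-fold (adjusted p = 0.000673), and the gene ranked 9th. The ratios of P114 over CMT-U229 were -0.25, 0.41, -0.50, -1.02 and -0.18. They fell on both sides of 0, with replicate 2 alone above it. The mean of -0.31 ± 0.19 was not called (adjusted p = 0.473), and its 95% interval ran from -0.75 to 0.13, which holds both no difference and a moderately higher level in CMT-U229. The arrays with P114 in Cy5 averaged 0.080 (n = 2) and those with P114 in Cy3 averaged -0.57 (n = 3). The dye term of KRT8 was not called in that pair (adjusted p = 0.696, limma).

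KRT18, the type I partner of KRT8, showed the second largest ratios of these genes in P114 over CMT-U335, at 3.00, 2.84, 4.11, 3.73 and 3.70. All 5 arrays lay far above 0, and the mean of 3.48 ± 0.19 corresponds to an 11.1-fold higher level in P114 (adjusted p = 4.54e-05). The arrays of P114 over CMT-U229 gave 2.33, 2.87, 2.40, 1.85 and 2.61. Again none approached 0, and the mean was 2.41 ± 0.14, or 5.32-fold (adjusted p = 0.000179), which ranked 5th of 5246 genes. CMT-U229 over CMT-U335 gave a far smaller difference, with 0.78, 0.68, 0.70, 0.83 and 0.99. These values were tightly grouped (SD 0.124), and the mean of 0.79 ± 0.073, or 1.73-fold, was called (adjusted p = 0.000715). It ranked 145th.

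On every array the keratins' ratios differed from each other, and in a direction that depended on the lines. On each array of P114 over CMT-U335 the KRT18 ratio exceeded the KRT8 ratio, by 1.02 ± 0.182 (SD, n = 5). The excess was 2.72 ± 0.193 in P114 over CMT-U229 and again had the same sign on 5 of 5 arrays. The order turned in CMT-U229 over CMT-U335: KRT18 lay below KRT8 on 5 of 5 arrays, by -1.77 ± 0.549. The spread of this difference in the pairs with P114 was smaller than that of either keratin alone, whose SDs were 0.579 for KRT8 and 0.534 for KRT18 in P114 over CMT-U335 and 0.520 and 0.378 in P114 over CMT-U229. In CMT-U229 over CMT-U335 this did not hold. The SD of the difference, 0.549, lay there between 0.124 for KRT18 and 0.649 for KRT8. Each of the 3 differences reached p = 0.0625 in a two-sided exact sign-flip permutation test, the smallest value that 5 arrays allow (adjusted p = 0.0938 over 12 such differences between members or probes), so this test cannot reach 0.05 with 5 arrays. Each keratin was measured by a single cDNA probe. Probes may differ in how strongly they compress a ratio, and cross-hybridisation with related keratin sequences was not tested.

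**Figure D2:**
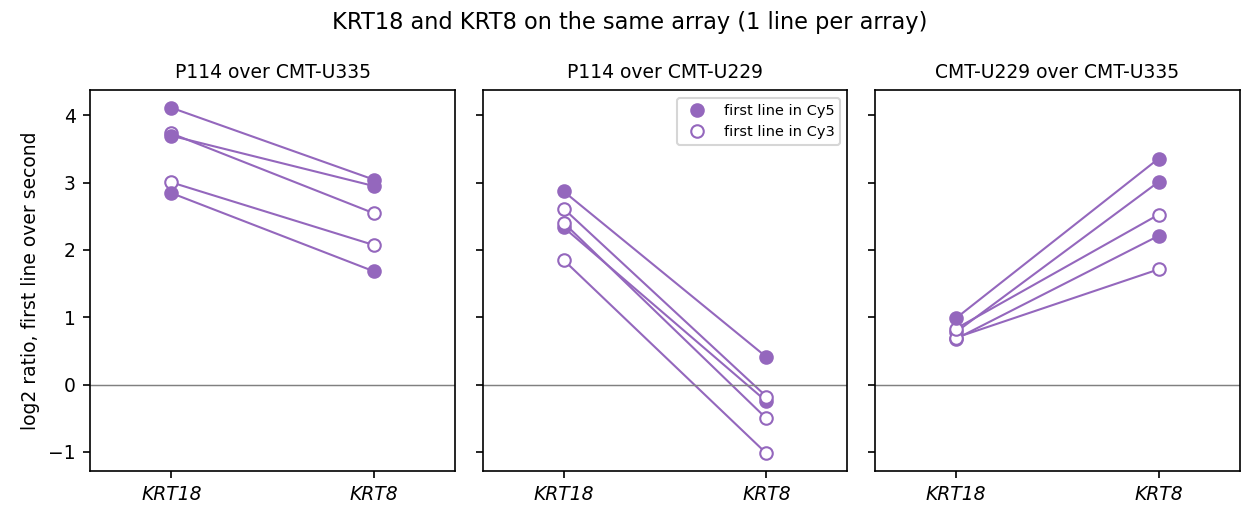
Log2 ratios of KRT18 (left) and KRT8 (right) joined for each array, filled where the first-named line carried Cy5, in the 3 pairs of lines. The lines slope down from KRT18 to KRT8 on all 10 arrays with P114 and up on all 5 arrays of CMT-U229 over CMT-U335.

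EPCAM, the epithelial adhesion molecule, had ratios of 3.78, 3.01, 3.29, 3.55 and 4.11 in P114 over CMT-U335. The lowest array still put it 3.01 log2 units higher in P114, and the mean of 3.55 ± 0.15 was 11.7-fold (adjusted p = 2.47e-05). P114 over CMT-U229 gave 1.79, 1.48, 2.08, 1.90 and 1.74, with a mean of 1.80 ± 0.099, or 3.48-fold (adjusted p = 0.000152). CMT-U229 over CMT-U335 gave 1.33, 1.87, 2.32, 1.87 and 1.49. That mean was 1.78 ± 0.14, or 3.43-fold (adjusted p = 0.000478). The ranges of these last pairs overlapped on the arrays, and their means differed by less than either SE. CMT-U229 thus lay midway between the other lines for EPCAM, whereas it lay near P114 for KRT8 and near CMT-U335 for KRT18. Set against the keratins on the same arrays, EPCAM exceeded KRT8 by 1.09 ± 0.539 in P114 over CMT-U335 and by 2.11 ± 0.708 in P114 over CMT-U229 (SD, n = 5 each, above 0 on 5 of 5 arrays in both). The difference was -0.79 ± 1.02 in CMT-U229 over CMT-U335, below 0 on 4 of 5 arrays (exact sign-flip permutation, p = 0.188). KRT18 minus EPCAM was -0.071 ± 0.609 in P114 over CMT-U335, with both signs on the arrays. It was 0.62 ± 0.548 in P114 over CMT-U229, above 0 on 4 of 5 arrays (exact sign-flip permutation, p = 0.125), and -0.98 ± 0.466 in CMT-U229 over CMT-U335, below 0 on 5 of 5 (p = 0.0625 by the same exact test). The dye term of EPCAM was not called in any pair (adjusted p from 0.551 to 0.924, limma).

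TJP1, the tight junction scaffold, moved little as an average of its probes. That average stood at -0.23, -0.45, -0.53, -0.18 and -0.33 in P114 over CMT-U335, below 0 on every array. The mean of -0.35 ± 0.082, a 1.27-fold lower level in P114, was called (adjusted p = 0.0204). The values were -0.50, -0.43, 0.0037, -0.25 and -0.47 in CMT-U229 over CMT-U335. That mean, -0.33 ± 0.092, was not called (adjusted p = 0.0524). They were -0.36, -0.065, 0.25, 0.0071 and 0.26 in P114 over CMT-U229, on both sides of 0, with a mean of 0.017 ± 0.11 (adjusted p = 0.969) and a 95% interval from -0.24 to 0.27. The call against CMT-U335 was lost without replicate 2, 3 or 5 (adjusted p = 0.0650, 0.0722 and 0.0536 in turn). Conversely, CMT-U229 over CMT-U335 was called without replicate 3, at -0.41 (adjusted p = 0.0292).

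The probes of TJP1 did not give the same ratio. Probe 12927 was at -0.65, -0.72, -0.70, -0.43 and -0.57 in P114 over CMT-U335, whereas probe 14396 was at 0.20, -0.18, -0.37, 0.065 and -0.099. Their ranges did not overlap. In the pairs against CMT-U335 the sign of probe 14396 went with the dye: it was below 0 on all 6 arrays with the first-named line in Cy5 and above 0 on all 4 with it in Cy3. Probe 12927 was below 0 on all 10 of these arrays. The dye term of TJP1, averaged over its probes, was negative in each pair (-0.12 in P114 over CMT-U335, -0.19 in P114 over CMT-U229 and -0.17 in CMT-U229 over CMT-U335) and was not called (adjusted p from 0.551 to 0.676, limma). When every probe of the array was tested by itself, the first had a mean of -0.61 ± 0.077 and was called (adjusted p = 0.00421; 10.3% of 22176 probes were called). The second had a mean of -0.077 ± 0.10 and was not (adjusted p = 0.749). Probe 12927 averaged -0.55 ± 0.11 in CMT-U229 over CMT-U335 (adjusted p = 0.0370; 8.23% of probes called) and probe 14396 averaged -0.11 ± 0.13 (adjusted p = 0.775). Within arrays the first lay below the second on 5 of 5 arrays in both of these pairs, by -0.54 ± 0.192 and -0.43 ± 0.440 (SD), each at the smallest exact sign-flip p of 0.0625. Neither probe was called in P114 over CMT-U229 (3.4% of probes called), and the difference between them was 0.035 ± 0.403. The lower TJP1 level of P114 and CMT-U229 relative to CMT-U335 thus rested on a single probe, and which transcript regions the probes cover was not examined.

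**Figure D3:**
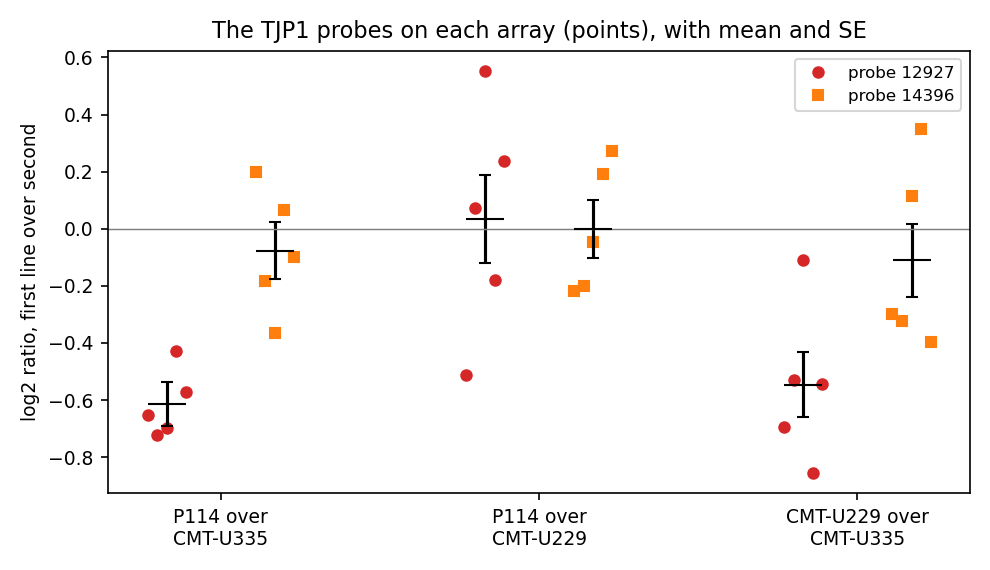
Log2 ratios of TJP1 probes 12927 (circles) and 14396 (squares) on each array, with mean and SE from limma, in the 3 pairs. Probe 12927 averages -0.61 and -0.55 in the pairs against CMT-U335, where probe 14396 averages -0.077 and -0.11.

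Because the 3 pairs form a loop, each direct ratio can be set against the sum of the other pairs. For KRT8 the direct ratio of P114 over CMT-U335 was 2.46 and the indirect sum 2.25. For KRT18 these were 3.48 and 3.21, for EPCAM 3.55 and 3.57, and for TJP1 -0.35 and -0.31. The direct minus the indirect value was 0.20 ± 0.41 (SE) for KRT8, 0.27 ± 0.28 for KRT18, -0.027 ± 0.26 for EPCAM and -0.034 ± 0.16 for TJP1. None was called (adjusted p = 1.00, limma over 15 arrays). Of all genes 0% were called in this test, and 17 of 5246 had an unadjusted p under 0.05. That is far fewer than a well-calibrated test would give at this threshold even without any mismatch. The test was thus conservative, and the lack of a call does not show that direct and indirect values match.

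A fit over all 15 arrays placed the lines on a single scale for each gene, as a log2 level relative to the mean of the 3 lines. For KRT8 these levels were 0.72 in P114, 0.96 in CMT-U229 and -1.67 in CMT-U335 (SE 0.11 each), and the first pair in that order did not differ beyond its spread on the arrays that compared them. For KRT18 they were 1.96, -0.54 and -1.42 in the same order of lines (SE 0.075), with every step called in its own pair. For EPCAM they were 1.78, -0.0066 and -1.77 (SE 0.067), and for TJP1 -0.11, -0.12 and 0.22 (SE 0.043). The levels describe differences between lines within a gene and do not compare the abundance of different genes.

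**Figure D4:**
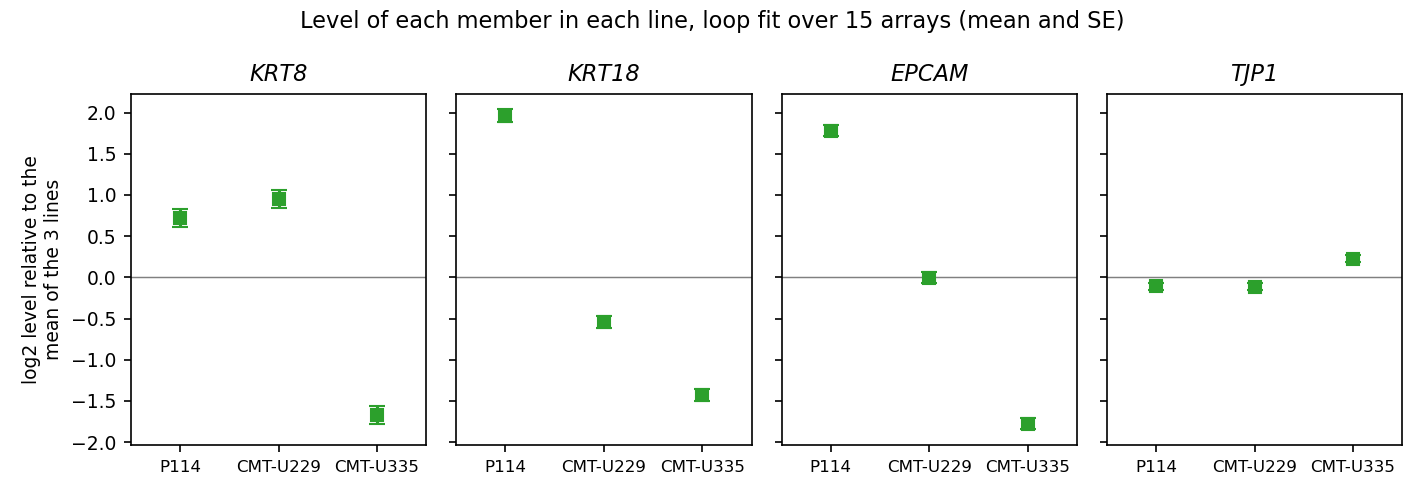
Log2 level of each gene in P114, CMT-U229 and CMT-U335 relative to the mean of the 3 lines, with SE, from the fit over 15 arrays. For KRT8 P114 stands at 0.72 beside CMT-U229 at 0.96, while CMT-U229 lies nearer CMT-U335 for KRT18 (-0.54 and -1.42) and midway for EPCAM (-0.0066).

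No other keratin could be set beside these. Of 5 listed keratins of simple epithelia only KRT8 and KRT18 were measured under a symbol, and of 13 keratins of basal and stratified epithelia none was. Among 10 other intermediate filament genes and plakins, the linkers that tie filaments to junctions and to the rest of the cytoskeleton, P114 over CMT-U335 had 1 called higher and 2 lower (7.89% of all genes were called higher and 14.4% lower). The spectraplakin genes DST (-0.86 ± 0.11) and MACF1 (-0.74 ± 0.11) fell, and PPL, which encodes the keratin-binding periplakin, rose (0.41 ± 0.097). PPL was also higher in P114 over CMT-U229 (0.96 ± 0.14) and lower in CMT-U229 over CMT-U335 (-0.48 ± 0.10), so CMT-U229 had the lowest level. MACF1 was lower in CMT-U229 over CMT-U335 as well (-0.68 ± 0.13), and DST in P114 over CMT-U229 (-0.58 ± 0.078). With the apparent swaps averaged these 4 calls outside P114 over CMT-U335 were lost (adjusted p from 0.0547 to 0.104). VIM, DES and the other 5 genes of that list were not called in any pair.

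EPCAM works with tetraspanins and is cut by membrane proteases, after which its inner fragment can act with beta-catenin, FHL2 and LEF1. Of 7 other measured genes of this kind, P114 over CMT-U335 had 2 higher and none lower, where 7.89% of all genes were higher and 14.4% lower. CTNNB1, which encodes beta-catenin, stood at 1.97 ± 0.21, a 3.91-fold difference (adjusted p = 0.000741). The tetraspanin gene TSPAN8 stood at 0.88 ± 0.19 (adjusted p = 0.0144). In P114 over CMT-U229, where 3.32% of all genes were higher and 3.98% lower, CTNNB1 (1.53 ± 0.30) and the sheddase gene ADAM10 (0.75 ± 0.091) rose. With the apparent dye swaps averaged neither kept its call in that pair (adjusted p = 0.190 and 0.0568). TSPAN8 lay below 0 on all 5 arrays of P114 over CMT-U229, opposite to EPCAM. Its mean of -1.44 ± 0.39 was not called (adjusted p = 0.0764, limma). Among the same 7 genes 2 rose and 2 fell in CMT-U229 over CMT-U335, where 8.77% of all genes were higher and 8.58% lower. TSPAN8 was 6.65-fold higher (2.73 ± 0.18, adjusted p = 0.000211) and CTNNB1 higher at 0.67 ± 0.10, while ADAM10 (-0.97 ± 0.11) and LEF1 (-0.27 ± 0.073; adjusted p = 0.160 with the apparent swaps averaged) were lower. CTNNB1 therefore followed the order of EPCAM, with P114 highest and CMT-U335 lowest, and was called in all 3 pairs as EPCAM was. The median of the 7 genes was -0.10 in P114 over CMT-U335, 0.18 in P114 over CMT-U229 and -0.27 in CMT-U229 over CMT-U335, beside -0.023, -0.011 and -0.0050 for all genes.

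Few of the other tight junction genes were called. Of 12 measured, among them the claudins CLDN2, CLDN10 and CLDN18 and the polarity proteins PARD3 and PARD6A, 1 was lower in P114 over CMT-U335 and 11 were not called, where 22.3% of all genes were called. That gene was MPDZ, a scaffold with many PDZ domains, at -0.39 ± 0.087 (adjusted p = 0.0166). It was also the single called gene in P114 over CMT-U229 (-0.56 ± 0.075, adjusted p = 0.00626), and 1 of 12 is close to the 7.3% called among all genes there. With the apparent swaps averaged MPDZ lost both calls (adjusted p = 0.0775 and 0.0642). None of the 12 was called in CMT-U229 over CMT-U335, beside 17.3% of all genes, and the DNA-binding ZO-1 partner gene YBX3 stood highest there (0.61 ± 0.17, adjusted p = 0.0520). All 12 lay between -0.39 and 0.19 in P114 over CMT-U335, far below the ratios of the keratins and EPCAM in that pair.

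Of 5 measured adherens junction genes CTNNB1 and JUP (0.57 ± 0.11) were higher in P114 over CMT-U335. The share called over all genes was 22.3% in that pair, 7.3% in P114 over CMT-U229 and 17.3% in CMT-U229 over CMT-U335. CTNNB1 was already counted with the EPCAM partners, and JUP counts again among the desmosome genes. JUP encodes plakoglobin, which serves adherens junctions and desmosomes alike. The alpha-catenin gene CTNNA1 (0.33 ± 0.071) was higher beside CTNNB1 in CMT-U229 over CMT-U335, and LMO7 was lower (-0.44 ± 0.11). CTNNA1 and LMO7 lost the call with the apparent swaps averaged (adjusted p = 0.104 and 0.160). Of 4 desmosome genes JUP and DSP, which encodes the keratin-anchoring desmoplakin (0.57 ± 0.15), were higher in P114 over CMT-U335, and PKP4 and PERP were not called. The call of DSP was lost with the apparent swaps averaged (adjusted p = 0.0696). None of the 4 was called in the other pairs. Neither gap junction gene measured (GJA5 and GJB1) was called in any pair.

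**Figure D5:**
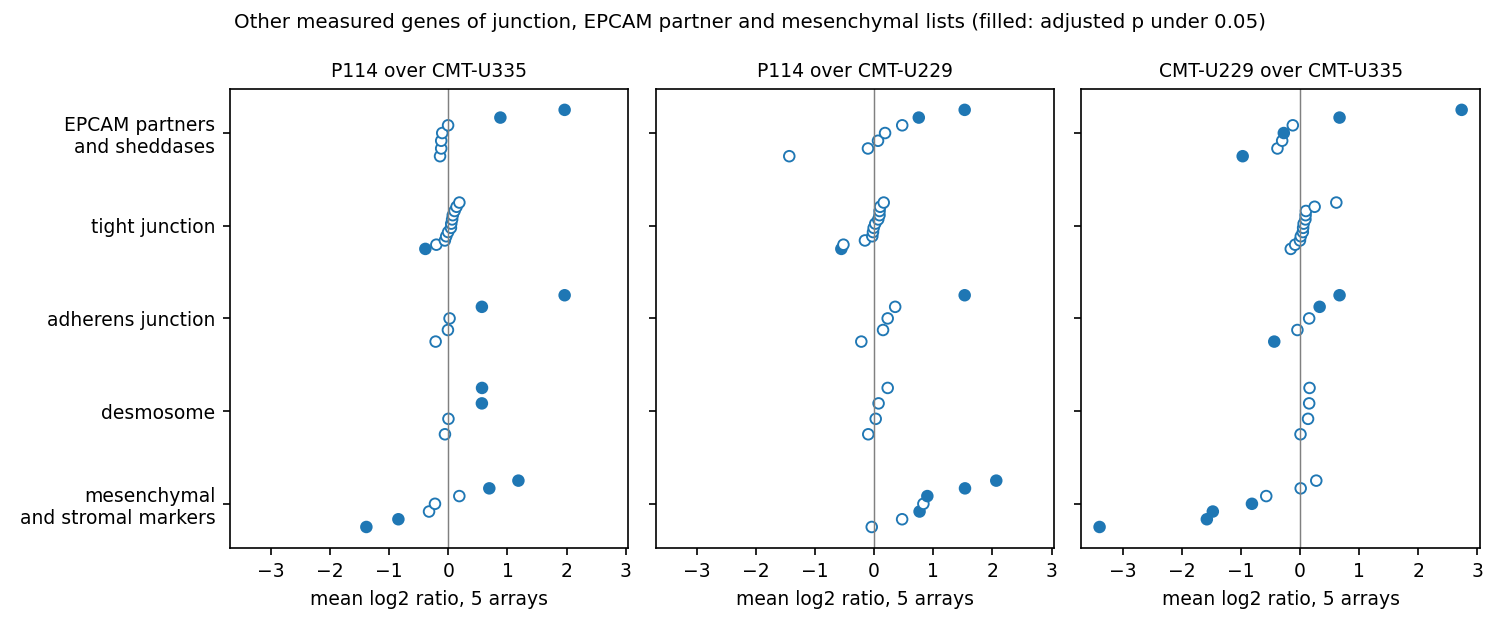
Mean log2 ratio over 5 arrays of each other measured gene of 5 lists (points, filled where called by limma), in the 3 pairs of lines. Tight junction genes stay within -0.56 and 0.61, CTNNB1 lies at 1.97 and 1.53 in the pairs with P114, and mesenchymal markers lie mostly above 0 in P114 over CMT-U229 and below 0 in CMT-U229 over CMT-U335.

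Among factors known to hold or end the epithelial state, 4 were measured. For comparison, 7.89% of all genes were called higher and 14.4% lower in P114 over CMT-U335. In CMT-U229 over CMT-U335 these shares were 8.77% and 8.58%. ZEB1, a repressor of epithelial genes, was lower in P114 over CMT-U335 (-0.91 ± 0.13, adjusted p = 0.00265) and in CMT-U229 over CMT-U335 (-0.57 ± 0.084, adjusted p = 0.00441). It was at -0.17 ± 0.073 and not called in P114 over CMT-U229. TCF4, ESRP2 and KLF4 were not called in any pair. Of the luminal marker list MUC1, XBP1 and ANXA1 were measured. XBP1, a transcription factor of secretory cells, was higher in P114 (0.83 ± 0.13) and in CMT-U229 (0.73 ± 0.14) over CMT-U335, and ANXA1 in P114 over CMT-U335 (0.46 ± 0.090). XBP1 lost its call in CMT-U229 over CMT-U335 with the apparent swaps averaged (adjusted p = 0.0614). The mucin gene MUC1 was not called in any pair.

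Some markers of other cell types were also called, and their part in the ratios above was not tested. Over all genes 22.3% were called in P114 over CMT-U335, 7.3% in P114 over CMT-U229 and 17.3% in CMT-U229 over CMT-U335. Of 7 mesenchymal and stromal markers, P114 over CMT-U229 had 4 higher and none lower, led by the collagen gene COL1A2 (2.06 ± 0.30) and S100A4 (1.54 ± 0.084). So KRT18, EPCAM and these 4 were all higher in P114 than in CMT-U229. With the apparent swaps averaged 1 of the 4 kept its call, and COL1A2 was among those that lost it. Against this, 4 were lower and none higher in CMT-U229 over CMT-U335, with COL1A2 at -3.39 ± 0.22, S100A4 at -1.58 ± 0.19, FBLN2 at -1.47 ± 0.14 and DCN at -0.81 ± 0.11. In P114 over CMT-U335 2 were higher (FN1 at 1.18 ± 0.19 and COL3A1 at 0.69 ± 0.11) and 2 lower (COL1A2 at -1.39 ± 0.14 and FBLN2 at -0.84 ± 0.14). The list medians were -0.23 in P114 over CMT-U335, 0.83 in P114 over CMT-U229 and -0.81 in CMT-U229 over CMT-U335.

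Of 9 basal and myoepithelial markers P114 over CMT-U335 had 2 higher, the laminin gene LAMA3 (1.58 ± 0.24) and CAV1 (0.41 ± 0.093), and 1 lower, the tropomyosin gene TPM2 (-0.90 ± 0.12). In P114 over CMT-U229 LAMA3 (2.47 ± 0.29) and CAV1 (1.22 ± 0.073) rose and MYLK (-2.03 ± 0.10) and TPM2 (-0.75 ± 0.11) fell. LAMA3 and TPM2 lost these calls with the apparent swaps averaged (adjusted p = 0.0785 and 0.0881). In CMT-U229 over CMT-U335 MYLK, the kinase of myosin light chains (2.22 ± 0.073), and the integrin gene ITGA6 (0.89 ± 0.15, whose probes disagreed) were higher and LAMA3 (-1.20 ± 0.18) and CAV1 (-0.72 ± 0.093) lower. Of 4 bone markers, SPP1 and SPARC were higher and COL1A2 lower in P114 over CMT-U335, COL1A2 and SPARC were higher in P114 over CMT-U229, and SPP1 was higher and COL1A2 lower in CMT-U229 over CMT-U335. COL1A2 was already counted with the mesenchymal markers. Both calls of SPARC were lost with the apparent swaps averaged (adjusted p = 0.102 and 0.114), as was that of COL3A1 in P114 over CMT-U335 (adjusted p = 0.0521). COL1A2 lost its call in P114 over CMT-U229 in the same setting. Of 8 leukocyte markers 1 or 2 were called in a pair, and their ratios ran from -0.64 to 0.50. Among all genes the called share was 22.3% in P114 over CMT-U335, 7.3% in P114 over CMT-U229 and 17.3% in CMT-U229 over CMT-U335. The leukocyte counts were not far from these shares. The 4 endothelial markers lay between -0.18 and 0.16 with none called. Presence or absence of any marker cannot be read from these ratios.

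The likeness of other genes was measured as the root mean square difference in log2 ratio over the 15 arrays, as a description. Of 5241 other genes with complete values, 0 were closer to KRT18 than EPCAM was, at 0.829, and 0 were closer to EPCAM than KRT18 was. By contrast, 715 genes were closer to KRT8 than KRT18 was (1.99), and 111 were closer to it than EPCAM was (1.60). Outside the 4 genes, KRT8 lay closest to the pseudokinase gene TRIB1 (0.680), followed by RPL8 (0.776) and ITM2B (0.830). TRIB1 stood at 1.87 in P114 over CMT-U335, -0.23 in P114 over CMT-U229 and 1.93 in CMT-U229 over CMT-U335. KRT18 lay closest to CDKN1A (0.854), the calcium-binding protein gene S100A14 (0.883) and ACSL5 (0.904). S100A14 stood at 2.33, 1.89 and 0.025 in the same order of pairs, so in CMT-U229 over CMT-U335 it lacked the small difference KRT18 had. EPCAM lay closest to CDKN1A (0.8292), FABP3 (0.962) and MT2A (1.01). CDKN1A was thus practically level with KRT18, which lay at 0.8287 from EPCAM. TJP1 lay closest to SRSF12 (0.125), USP33 (0.152) and COPG1 (0.153), genes with ratios as small as its own.

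KRT8 and KRT18 are neighbours on dog chromosome 27 in the RefSeq table, with 0 protein-coding genes between them. The next gene beyond KRT18, EIF4B, which encodes a translation initiation factor, was not called in any pair (0.20 ± 0.11 in P114 over CMT-U335, 0.022 ± 0.075 in P114 over CMT-U229 and 0.12 ± 0.12 in CMT-U229 over CMT-U335). IGFBP6, with 3 protein-coding genes between it and KRT18, was higher in P114 over CMT-U335 (0.65 ± 0.12) and over CMT-U229 (1.01 ± 0.11) and lower in CMT-U229 over CMT-U335 (-0.32 ± 0.088). The last 2 of these calls were lost with the apparent swaps averaged (adjusted p = 0.0531 and 0.173). On the other side the nearest measured genes ATG101, NR4A1 and ACVRL1 were not called. They lie farther off, with 30, 31 and 34 protein-coding genes between them and KRT8. EPCAM lies on chromosome 10, where the mismatch repair gene MSH6 was lower in P114 over CMT-U335 (-0.68 ± 0.14, adjusted p = 0.0106), opposite to EPCAM. Of its other measured neighbours MCFD2 was not called. SOCS5 (0.57 ± 0.070) and ACYP2 (1.14 ± 0.19) were higher and FBXO11 (-0.48 ± 0.082) lower in CMT-U229 over CMT-U335. In P114 over CMT-U229 SOCS5 (-0.69 ± 0.13) and ACYP2 (-1.05 ± 0.11) were lower. ACYP2 lies farthest off, with 19 protein-coding genes between it and EPCAM. PIGF was lower in P114 over CMT-U335 (-0.34 ± 0.091). With the apparent swaps averaged PIGF (adjusted p = 0.0524), SOCS5 in P114 over CMT-U229 (0.139) and ACYP2 in CMT-U229 over CMT-U335 (0.0654) were not called. On chromosome 3 MCEE, a measured neighbour of TJP1, was lower in P114 over CMT-U335 (-1.02 ± 0.11) and over CMT-U229 (-0.58 ± 0.12; adjusted p = 0.217 with the apparent swaps averaged), while TM2D3 on the other side was not called.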

How the data were processed

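Per the labels' protocols, total RNA was amplified by T7 transcription with aminoallyl UTP and coupled to Cy3 or Cy5. The deposited values are log2 ratios between the dyes, already normalized by the authors per the design text. How they were scanned, background-corrected and normalized, and which log base and numerator they have, is not given in the sources used here. Base 2 was inferred from the largest absolute value, 12.43. Array medians lay from -0.0067 to 0.0134.

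Of 22176 probes 7694 had 1 symbol, 0 several and 14482 none, and 7340 symbols were updated by Entrez identifier in RefSeq's UU_Cfam_GSD_1.0 table. Arrays were turned by their dyes to the order in their titles. Each gene's probes were averaged within arrays, and a value was required on at least 3 of 5 arrays. Each pair was fitted with limma 3.58.1 (lmFit, eBayes, two-sided) in R 4.3.3. The design text names SAM, run here as an alternative. The fits were checked on simulated arrays.

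The 4 genes, the 16 lists and the apparent swaps were chosen with earlier results of these data known. Named genes were the 4, up to 4 called genes per list and pair, the 3 most alike and the 3 nearest measured on either side. Other names, given as not called, were chosen after their values were seen. Replicate numbers did not pair arrays across pairs (correlations of deviations from -0.248 to 0.333).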

Additional observations from a re-analysis of the deposited data

How the results depend on the processing

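KRT8, KRT18 and EPCAM kept their direction and their side of the threshold in every pair under all 18 alternatives each: array medians at 0, scale normalization, no filter on missing values or values on all arrays, a dye term, 1 fit or a loop fit over 15 arrays, the replicate block, the median of probes, each probe by itself, apparent swaps averaged, a SAM-type test, adjusted p under 0.01 and each array left out. Without 1 array, the ratio ranged from 2.31 to 2.65 for KRT8, from 3.32 to 3.63 for KRT18 and from 3.41 to 3.68 for EPCAM in P114 over CMT-U335. The largest adjusted p of their called values was 0.0298, for KRT18 in P114 over CMT-U229. KRT8 in P114 over CMT-U229 stayed uncalled at -0.49 to -0.13. Not all of the 18 alternatives could move these ratios. Each of the 3 genes had 1 probe and a value on all 5 arrays of every pair. The missing-value and probe settings could therefore change only its adjusted p, not its ratios.

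TJP1 was the exception. In P114 over CMT-U335 its call was lost with probe 14396 (-0.077), with adjusted p under 0.01 (-0.35) and without replicate 2, 3 or 5. The 5 values without 1 array ranged from -0.39 to -0.30. In CMT-U229 over CMT-U335 it gained a call with a dye term (-0.29), 1 fit over 15 arrays (-0.33), the loop fit (-0.34), the replicate block in the fit over 15 arrays (-0.33), probe 12927 (-0.55), the SAM-type test (-0.33) and, among the arrays left out, only without replicate 3 (-0.41). The 5 values without 1 array ranged from -0.41 to -0.29. In P114 over CMT-U229 it stayed uncalled, with both signs (-0.042 to 0.11). The block changed no other call of the 4 genes, and the loop closures stayed uncalled with a dye term or the block. Replicate numbers share nothing that the labels name.

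Counts of called genes moved more. For P114 over CMT-U335 (1169) they were 1757 in the loop fit and 642 with adjusted p under 0.01. For P114 over CMT-U229 (383) they were 650 in 1 fit over 15 arrays, 1056 in the loop fit, 79 with swaps averaged, 159 with adjusted p under 0.01 and 202 to 408 without 1 array (202 to 235 without replicate 1, 2, 3 or 5). For CMT-U229 over CMT-U335 (910) they were 1445 in the loop fit, 410 with swaps averaged, 470 with adjusted p under 0.01 and 571 to 863 without 1 array (586 without replicate 2 and 571 without replicate 5). Of 90 called values of other named genes, 49 lost the call in some alternative, 35 of them with swaps averaged. ITGA6 in CMT-U229 over CMT-U335 turned to -0.050 with probe 17143. The causes were not tested. Intensities were not used, so what signal over background limits is unknown.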
